A study of Mus musculus with 30 samples.

Results

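The 10 genes described here are grouped as coupling factors, signals from osteoclasts, the bone-resorbing cells, to bone-forming cells. They are Csf1, Lif, Tgfb1, Pdgfb, Bmp6, Wnt10b, Sema4d, Efnb2, Slit3 and Cthrc1. Csf1 differs in its target, since it encodes M-CSF, the survival factor of the osteoclast lineage itself. The 10 genes were taken by name, but with earlier results of these data known, so the choice was not blind to the data. They were found by matching the mouse Ensembl identifiers of the files to gene symbols. All 10 were among the 50686 genes counted, each under 1 identifier.

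RNA was sequenced from 30 libraries, 3 in each of 10 groups, of osteoclast cultures from C57BL/6J mice, started from macrophages of the bone marrow. The medium held 10% FBS, 25 ng/ml M-CSF and 100 ng/ml RANKL in every culture, and the study asked whether osteoclasts of donors that differ in age or lack Terc differ in gene expression. Donors were Terc-/- (KO), which lack the RNA template of telomerase, or wild type (WT). Multinucleated cultures, grown until large multinucleated cells were seen, came from 6-month and 1-month KO donors and from 1-month, 6-month and 20-month WT donors, and cultures of 2 days came from 20-month and 6-month WT donors. Both KO ages also have a set of 3 libraries with 519 in the title, and 1-month WT a set with a D1 tag. The labels explain neither tag, so set 519 and set D1 were kept as groups of their own. The labels do not say that replicates were separate animals or cultures, so the p-values reflect no more than the variation among the samples at hand, and this may be technical.

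Library totals were 4269798 to 12987993 counts in set 519 and 13182063 to 25147975 counts in the remaining 24 libraries. Terc was at 0 in the 12 KO libraries, and 3 of the 18 WT libraries held 5 Terc counts between them, so the transcript was too rare to check the genotype labels. Set D1 differed from the other sets in sex: Xist, the RNA that silences an X chromosome in females, had 847 to 936 CPM (counts scaled to 1000000 per library after TMM normalisation) in set D1, against at most 0.431 CPM elsewhere, and the Y-linked gene Ddx3y was at 0 in set D1 and at 60.4 CPM or more elsewhere. In any comparison with set D1, sex and title set cannot be told apart. The 10 osteoclast markers checked (Acp5, Ctsk, Calcr, Mmp9, Dcstamp, Ocstamp, Nfatc1, Atp6v0d2, Oscar and Itgb3) summed to 26509.8 to 27711 CPM in 6-month KO of set 519, 2469.7 to 2766 CPM in untagged 6-month KO, 7033 to 8246 CPM in 1-month KO of set 519 and 673 to 736 CPM in untagged 1-month KO. In WT they summed to 44072 to 46489 CPM in set D1, 2362 to 2489 CPM in untagged 1-month, 20736 to 22382 CPM in 6-month and 23157 to 24805 CPM in 20-month multinucleated cultures, and to 4664 to 4820.0 and 3653 to 4284 CPM in 20-month and 6-month 2-day cultures. Untagged KO of both ages and untagged 1-month WT therefore carried less osteoclast marker RNA than the 2-day cultures, although they are labelled as multinucleated, and Calcr, the calcitonin receptor of mature osteoclasts, had 0.0329 CPM in untagged 1-month KO. Sums of 8 macrophage markers lay between 8661 and 47510 CPM. Over all libraries, summed markers of other cells were 0.181 to 1.07 CPM for T and B cells, 0.856 to 18.7 CPM for neutrophils, 31.1 to 147 CPM for endothelium and 16.9 to 282 CPM for platelets and megakaryocytes, which are known to carry Pdgfb and Tgfb1.

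Bone remodelling joins resorption to formation: osteoclasts release, display or set free from the matrix signals that recruit osteoblast progenitors, promote or restrain their differentiation, and guide vessels to the site. Some of these signals are soluble growth factors and cytokines (TGF-β1, PDGF-BB, BMP6, LIF, WNT10B, CTHRC1), some are guidance molecules of the nervous system used again in bone (SEMA4D, ephrin-B2, SLIT3), and Csf1 encodes M-CSF, the survival factor of the osteoclast lineage itself, which was also added to these cultures as protein. PDGF-BB has been described mainly as a product of mononuclear preosteoclasts, and CTHRC1 as a product of mature resorbing cells. The values below are mRNA levels, not secreted protein.

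The sequence just upstream of the start site is shown for the members on which the comparisons below turn: Csf1, which differed most between stages of culture, and Lif and Efnb2, which were highest in the same group and varied most alike of all member pairs. The sequences are those of RefSeq on GRCm38.p6, the 250 bases before RefSeq's start of the gene, read 5′ to 3′ on the gene's strand. For Lif this start lies 11 bases downstream of the annotated start given with its values, so the last 11 bases shown are inside the gene as annotated there. Capitals mark matches on either strand to GGAAA, the core bound by NFAT, whose member NFATc1 drives osteoclast genes. They also mark matches to TGANTCA, bound by AP-1, to the NF-kB consensus and to the TATA box TATAAA.
Csf1, chr3:107760470-107760719, minus strand: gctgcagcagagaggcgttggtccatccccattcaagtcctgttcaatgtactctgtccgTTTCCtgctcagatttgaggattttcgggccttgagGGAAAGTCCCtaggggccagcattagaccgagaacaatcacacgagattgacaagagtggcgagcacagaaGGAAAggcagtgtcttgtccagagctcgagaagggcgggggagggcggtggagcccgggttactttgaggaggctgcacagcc
Lif, chr11:4257318-4257567, plus strand: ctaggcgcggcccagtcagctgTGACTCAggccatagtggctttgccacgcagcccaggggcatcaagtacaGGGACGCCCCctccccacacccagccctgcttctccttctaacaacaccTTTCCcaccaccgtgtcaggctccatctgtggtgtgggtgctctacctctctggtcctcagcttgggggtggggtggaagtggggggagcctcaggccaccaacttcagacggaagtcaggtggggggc
Efnb2, chr8:8661243-8661492, minus strand: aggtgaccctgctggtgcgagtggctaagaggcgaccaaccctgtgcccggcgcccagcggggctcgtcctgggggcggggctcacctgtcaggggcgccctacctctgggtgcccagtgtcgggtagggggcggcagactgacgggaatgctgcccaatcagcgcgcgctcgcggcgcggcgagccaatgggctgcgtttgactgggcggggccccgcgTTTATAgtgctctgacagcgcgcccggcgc
The Csf1 sequence held 3 GGAAA matches and 1 NF-kB match, 154 bases before the start, that overlaps 1 of them. The Lif sequence held 1 match each to the NFAT core, the AP-1 motif and the NF-kB consensus. The Efnb2 sequence held a TATAAA match 30 bases before the start, on the strand opposite to the gene, and no match to the other motifs. Of 32851 mouse promoters of 300 bases (250 before to 50 after the start), 61.3% held GGAAA, 7.81% TGANTCA, 8.46% the NF-kB consensus and 13.6% TATAAA. Of the 8 members with an entry (those other than Pdgfb and Cthrc1), Lif and 1 of the 3 entries of Sema4d held TGANTCA, and Csf1, Lif, Wnt10b and Tgfb1 held the NF-kB consensus. A match describes these letters and is not evidence of a bound factor.

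The members fell into a well-expressed set and a sparse set. Per kilobase of exon, which allows levels of different genes to be compared, the median over the 30 libraries was 96.1 RPKM for Sema4d, 63.6 RPKM for Pdgfb, 41.4 RPKM for Tgfb1 and 11.2 RPKM for Csf1. It was 3.20 RPKM for Lif, 2.02 RPKM for Cthrc1, 1.96 RPKM for Efnb2, 0.427 RPKM for Slit3, 0.164 RPKM for Wnt10b and 0.0203 RPKM for Bmp6. The order changed with stage: Csf1 reached 104 RPKM in a 6-month 2-day library, where the group mean of Csf1 (95.7 RPKM) was above those of Sema4d (59.5 RPKM) and Pdgfb (46.6 RPKM). Between the highest and the lowest group, the mean level differed 2.18-fold for Pdgfb, 2.20-fold for Tgfb1 and 2.53-fold for Sema4d, against 23.5-fold for Csf1 and 47.3-fold for Slit3. The ratio of Slit3 is imprecise, since its lowest group, 1-month KO of set 519, had only 1 to 8 counts per library.

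**Figure D1:**
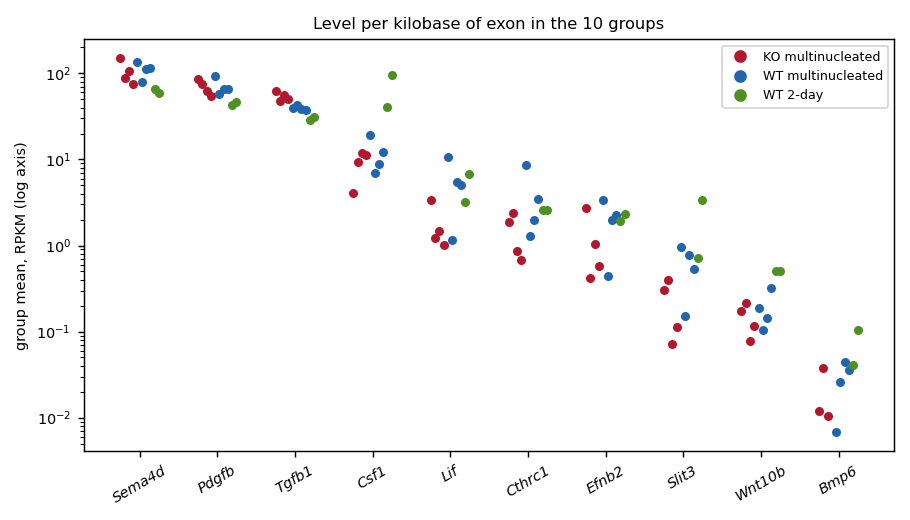
Group means of the 10 members in RPKM (CPM per kilobase of exon, log axis), 1 point for each of the 10 groups, coloured by genotype and stage. Sema4d, Pdgfb and Tgfb1 lie at or above 28.7 RPKM in every group, Csf1 spreads from 4.07 to 95.7 RPKM, and Bmp6 stays at or under 0.105 RPKM, with its group mean of 0 in untagged 1-month KO not drawn.

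Bmp6 and Wnt10b lay at or near the detection limit, taken as 3 counts in a library. Bmp6 (ENSMUSG00000039004, chr13:38345716-38499728, plus strand, GRCm38), a bone morphogenetic protein, had at most 6 counts in any library, 0 counts in 11 libraries and 3 counts or fewer in all libraries of 7 groups. Its 3 libraries of untagged 1-month KO held 0 counts, which allows up to 0.0529 CPM over the group by counting error alone. Bmp6 did not pass the filter on low counts and was not tested. Wnt10b (ENSMUSG00000022996, chr15:98771753-98778150, minus strand, GRCm38), a WNT ligand that promotes osteoblast formation, had 3 counts or fewer in 6 libraries, and in 1-month KO of set 519 it was at the limit, with 2, 3 and 0 counts. Slit3 had 3 counts or fewer in 2 libraries, both of 1-month KO of set 519 (3, 8 and 1 counts in the 3 libraries). The other 7 members had at least 7 counts in each library. The tests below therefore concern 9 of the 10 members, among 15310 genes that passed the filter.

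Tgfb1 (ENSMUSG00000002603, chr7:25687002-25705077, plus strand, GRCm38) encodes the latent growth factor TGF-β1, which is stored in bone matrix and activated on resorption. Tgfb1 had 325, 337 and 293 CPM in 6-month KO of set 519, 234, 239 and 248 CPM in untagged 6-month KO, 312, 269 and 273 CPM in 1-month KO of set 519 and 262, 229 and 269.6 CPM in untagged 1-month KO. In WT multinucleated cultures it had 196, 194 and 215 CPM in set D1, 240.3, 208 and 209 CPM in untagged 1-month, 194, 208 and 185 CPM in 6-month and 194, 195 and 185 CPM in 20-month donors. In 2-day cultures it had 139, 145 and 151 CPM in 20-month and 159, 161 and 153 CPM in 6-month WT. The 4 KO groups had the 4 highest means and the 2-day cultures the lowest, but neighbouring groups overlapped at each step of the order down to 20-month WT.

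Pdgfb (ENSMUSG00000000489, chr15:79995900-80014808, minus strand, GRCm38) encodes the B chain of PDGF, which recruits progenitors and vessels. It had 255, 258 and 239 CPM in 6-month KO of set 519, 219, 216 and 216 CPM in untagged 6-month KO, 196, 172 and 178 CPM in 1-month KO of set 519 and 174, 145 and 164 CPM in untagged 1-month KO. Among WT multinucleated cultures Pdgfb had 287, 255 and 277 CPM in set D1, 170.0, 179.9 and 158 CPM in untagged 1-month, 199, 192 and 186 CPM in 6-month and 185, 197 and 202 CPM in 20-month donors. In 2-day cultures it had 127, 128 and 120.4 CPM in 20-month and 126, 141 and 141 CPM in 6-month WT. All 24 multinucleated libraries lay above all 6 of the 2-day libraries, and set D1 and 6-month KO of set 519 overlapped at the top.

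Sema4d (ENSMUSG00000021451, chr13:51701246-51793747, minus strand, GRCm38) encodes a transmembrane semaphorin that restrains osteoblasts through plexin-B1. Sema4d had 998, 960.5 and 949 CPM in 6-month KO of set 519, 571, 545 and 576 CPM in untagged 6-month KO, 664, 683 and 698 CPM in 1-month KO of set 519 and 440.3, 509 and 499 CPM in untagged 1-month KO. In WT multinucleated cultures it had 872, 853 and 899.6 CPM in set D1, 460.1, 551 and 523 CPM in untagged 1-month, 729.5, 727 and 698 CPM in 6-month and 769, 738 and 751 CPM in 20-month donors. In 2-day cultures Sema4d had 434, 418 and 419 CPM in 20-month and 364, 397 and 389.7 CPM in 6-month WT. Within multinucleated cultures the groups with the highest osteoclast marker sums (set D1, 6-month KO of set 519, 20-month and 6-month WT) were also the 4 highest for Sema4d. The 2-day cultures were the lowest, although their marker sums exceeded those of untagged KO.

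Efnb2 (ENSMUSG00000001300, chr8:8617434-8661242, minus strand, GRCm38) encodes ephrin-B2, the membrane-bound ligand of EphB4 on osteoblasts. Efnb2 had 20.6, 17.6 and 18.2 CPM in 6-month KO of set 519, 3.36, 3.05 and 2.32 CPM in untagged 6-month KO, 7.24, 6.20 and 7.71 CPM in 1-month KO of set 519 and 3.99, 4.22 and 3.64 CPM in untagged 1-month KO. Among WT multinucleated cultures it had 22.8, 22.6 and 23.3 CPM in set D1, 2.35, 3.62 and 3.07 CPM in untagged 1-month, 11.49, 14.4 and 14.9 CPM in 6-month and 16.9, 14.1 and 15.3 CPM in 20-month donors. In 2-day cultures Efnb2 had 11.4, 12.8 and 15.2 CPM in 20-month and 15.9, 14.8 and 17.3 CPM in 6-month WT. The groups split into a low set (both untagged KO ages, 1-month KO of set 519 and untagged 1-month WT, none above 7.71 CPM) and a high set (all others, none under 11.4 CPM).

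Lif (ENSMUSG00000034394, chr11:4257557-4272514, plus strand, GRCm38) encodes leukaemia inhibitory factor, a gp130 cytokine that acts on osteoblasts. It had 13.7, 16.8 and 13.8 CPM in 6-month KO of set 519, 5.66, 4.96 and 5.30 CPM in untagged 6-month KO, 7.39, 6.43 and 5.37 CPM in 1-month KO of set 519 and 3.45, 4.78 and 4.89 CPM in untagged 1-month KO. In WT multinucleated cultures Lif had 46.6, 47.0 and 47.3 CPM in set D1, 4.41, 5.48 and 5.12 CPM in untagged 1-month, 26.2, 24.4 and 20.9 CPM in 6-month and 17.8, 23.2 and 24.2 CPM in 20-month donors. In 2-day cultures it had 14.99, 13.3 and 14.0 CPM in 20-month and 28.7, 31.6 and 27.8 CPM in 6-month WT. The same 4 groups as for Efnb2 formed the low set of Lif, with no library above 7.39 CPM and none of the other 18 libraries under 13.3 CPM.

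Csf1 (ENSMUSG00000014599, chr3:107741048-107760469, minus strand, GRCm38) encodes M-CSF. It had 20.8, 24.0 and 19.6 CPM in 6-month KO of set 519, 52.0, 47.4 and 48.1 CPM in untagged 6-month KO, 67.0, 54.9 and 64.9 CPM in 1-month KO of set 519 and 57.3, 57.1 and 61.8 CPM in untagged 1-month KO. Among WT multinucleated cultures Csf1 had 101, 107 and 93.4 CPM in set D1, 36.4, 34.5 and 40.0 CPM in untagged 1-month, 49.0, 46.9 and 43.2 CPM in 6-month and 67.3, 61.3 and 62.7 CPM in 20-month donors. In 2-day cultures it had 207, 214 and 216 CPM in 20-month and 460.4, 550.2 and 505 CPM in 6-month WT. The 2 groups of 2-day cultures stood above every multinucleated library, and 6-month KO of set 519 stood below every other library.

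Slit3 (ENSMUSG00000056427, chr11:35121224-35708507, plus strand, GRCm38) encodes a secreted ligand of ROBO receptors. It had 1.45, 2.07 and 1.96 CPM in 6-month KO of set 519, 2.85, 2.26 and 2.06 CPM in untagged 6-month KO, 0.462, 0.612 and 0.234 CPM in 1-month KO of set 519 and 0.389, 0.248 and 1.45 CPM in untagged 1-month KO. In WT multinucleated cultures Slit3 had 6.63, 6.11 and 4.94 CPM in set D1, 0.832, 0.811 and 1.11 CPM in untagged 1-month, 7.29, 4.30 and 2.66 CPM in 6-month and 2.52, 3.64 and 3.55 CPM in 20-month donors. In 2-day cultures it had 3.83, 3.999 and 5.26 CPM in 20-month and 19.9, 20.1 and 21.9 CPM in 6-month WT. The 6-month 2-day cultures stood alone at the top, and in CPM the 3 libraries of 6-month WT multinucleated cultures had the largest SD (2.35 CPM), while relative to its mean untagged 1-month KO spread more (0.695 ± 0.656 CPM).

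Cthrc1 (ENSMUSG00000054196, chr15:39076932-39087121, plus strand, GRCm38) encodes a secreted collagen triple helix repeat protein that promotes bone formation. It had 3.98, 1.90 and 2.39 CPM in 6-month KO of set 519, 2.99, 3.39 and 4.16 CPM in untagged 6-month KO, 1.54, 0.689 and 1.64 CPM in 1-month KO of set 519 and 1.02, 0.869 and 1.10 CPM in untagged 1-month KO. Among WT multinucleated cultures Cthrc1 had 12.0, 12.4 and 13.6 CPM in set D1, 2.30, 1.86 and 1.596 CPM in untagged 1-month, 2.86, 2.99 and 2.85 CPM in 6-month and 5.24, 4.71 and 5.32 CPM in 20-month donors. In 2-day cultures it had 3.35, 4.28 and 3.95 CPM in 20-month and 4.40, 2.52 and 4.57 CPM in 6-month WT. Set D1 stood above every other library, 20-month WT came next, and 1-month KO of both sets had the lowest means.

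Wnt10b had a group mean of 1.17 ± 0.366 CPM in 20-month 2-day cultures and of 1.19 ± 0.179 CPM in 6-month 2-day cultures, against 0.753 CPM or less in every multinucleated group (n = 3 each). Its counts per library did not exceed 24, and every neighbouring pair in the order of its group means overlapped.

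**Figure D2:**
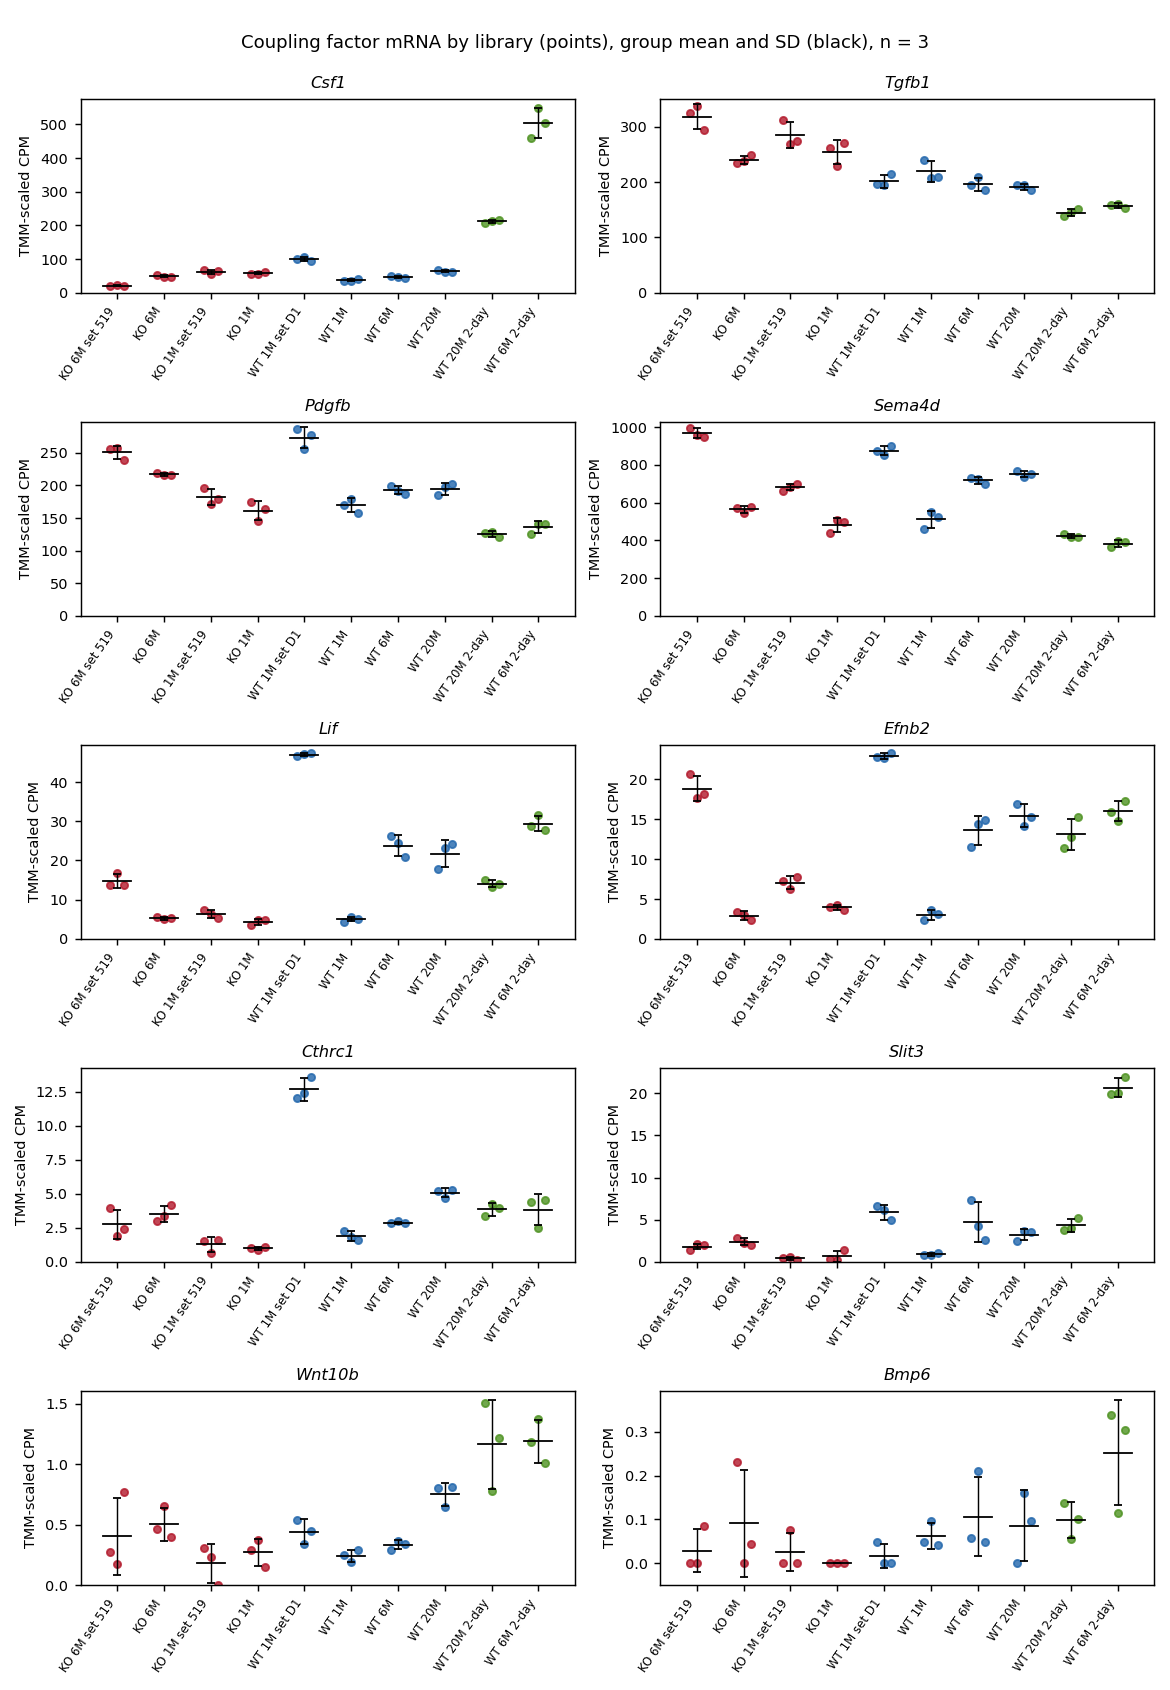
TMM-scaled CPM of each member (linear axes from 0, with a small margin below it for Bmp6) in the 30 libraries, points being libraries and black bars the group mean and SD (n = 3), in red for KO multinucleated, blue for WT multinucleated and green for WT 2-day cultures. Csf1 and Slit3 peak in the 6-month 2-day cultures, Lif, Efnb2 and Cthrc1 in set D1, and Tgfb1 in the KO groups.

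The stage comparison set multinucleated WT cultures against 2-day WT cultures of the same donor age. In 6-month donors, Csf1 fell 10.9-fold in multinucleated cultures (log2 fold change -3.45 ± 0.08, adjusted p = 3.12e-27, edgeR's quasi-likelihood test), Slit3 fell 4.42-fold (-2.14 ± 0.21, adjusted p = 1.84e-10), Wnt10b fell 3.50-fold (-1.81 ± 0.38, adjusted p = 0.00013) and Lif fell 1.23-fold (-0.30 ± 0.10, adjusted p = 0.0102). Sema4d rose 1.87-fold (0.91 ± 0.06, adjusted p = 9e-16), Pdgfb 1.42-fold (0.50 ± 0.06, adjusted p = 3.94e-08) and Tgfb1 1.24-fold (0.31 ± 0.07, adjusted p = 0.000176). Thus 7 of 9 tested members changed, where 50.8% of all tested genes did. Efnb2 and Cthrc1 did not pass after adjustment. Their 95% intervals of the log2 fold change were -0.45 to -0.01 and -0.80 to -0.01. Such intervals use the normal distribution and are not adjusted for the number of tests. The call of Lif was lost without replicate 2 of the 6-month 2-day cultures (-0.24, adjusted p = 0.0759) or without replicate 4 of the 6-month multinucleated cultures (-0.22, adjusted p = 0.1), and without replicate 2 of the 2-day cultures Cthrc1 gained a call (-0.62, adjusted p = 0.0103).

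In 20-month donors, Csf1 again fell in multinucleated cultures, 3.33-fold (-1.74 ± 0.07, adjusted p = 7.51e-20). Sema4d rose 1.78-fold (0.83 ± 0.06, adjusted p = 1.34e-14), Pdgfb 1.55-fold (0.63 ± 0.06, adjusted p = 3.04e-10), Tgfb1 1.32-fold (0.40 ± 0.07, adjusted p = 5.86e-06) and Lif 1.55-fold (0.63 ± 0.11, adjusted p = 7.29e-06). These were 5 of 9 tested members, near the 52.3% of all genes. Intervals of the log2 fold change were -0.96 to 0.07 for Slit3, -1.25 to 0.04 for Wnt10b, -0.0015 to 0.45 for Efnb2 and 0.03 to 0.76 for Cthrc1, none of which passed, and Efnb2 gained a call without replicate 3 of the 2-day cultures (0.35, adjusted p = 0.025).

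**Figure D3:**
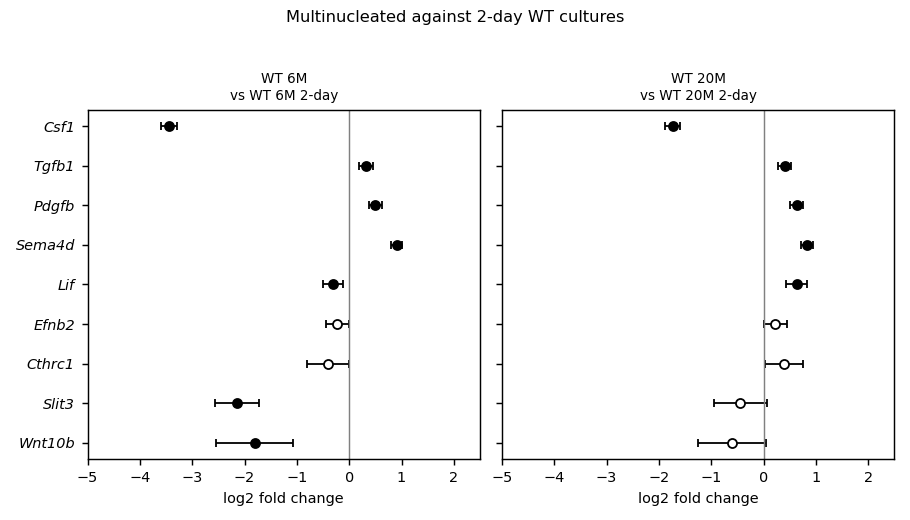
Log2 fold changes of the 9 tested members, multinucleated over 2-day WT cultures, in 6-month (left) and 20-month (right) donors, with 95% intervals as bars and filled points where the adjusted p was under 0.05. Csf1 lies furthest to the left in both panels, Sema4d, Pdgfb and Tgfb1 lie right of 0 in both, and Lif lies on opposite sides of 0.

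The stage difference itself differed with donor age for 3 of 9 members, against 12.4% of all genes. The difference of log2 fold changes, 20-month minus 6-month, was 1.71 ± 0.10, adjusted p = 4.67e-14 for Csf1, 1.70 ± 0.34, adjusted p = 0.000547 for Slit3 and 0.93 ± 0.15, adjusted p = 1.65e-05 for Lif. In 20-month 2-day cultures, against 6-month 2-day cultures, Slit3 fell 4.68-fold (-2.23 ± 0.22, adjusted p = 1.71e-09), Csf1 2.38-fold (-1.25 ± 0.07, adjusted p = 4.6e-15) and Lif 2.08-fold (-1.06 ± 0.11, adjusted p = 2.57e-09). Here 3 of 9 members changed, against 18.8% of all genes, and the median log2 fold change of the 9 was -0.12, against -0.02 for all genes. These comparisons share the 2-day libraries and are not independent. Without replicate 3 of the 20-month 2-day cultures, Efnb2 also passed, in the 2-day comparison (-0.39, adjusted p = 0.0363) and in the difference between ages (0.57, adjusted p = 0.0246). It passed in the difference also without replicate 2 of 20-month WT (0.52, adjusted p = 0.0439), as did Cthrc1 without replicate 2 of the 6-month 2-day cultures (1.01, adjusted p = 0.00944).

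Most stromal markers moved with Csf1, Slit3 and Wnt10b in 6-month donors. The 20 stromal and osteoblast markers checked, of which 19 passed the filter, summed to 3199 to 3667 CPM in 20-month and 1669 to 2155 CPM in 6-month multinucleated cultures, against 4236 to 4503 CPM in 20-month and 6479 to 6635 CPM in 6-month 2-day cultures. In 6-month donors 13 of the 19 fell and 2 rose in multinucleated cultures. Over all libraries, Col1a1, Col1a2, Sparc, Bgn, Postn and Acta2 had counts in each of the 30, whereas Lum was at 0 in 17 libraries, Lepr at 0 in 6, and Bglap had 3 counts or fewer in 28. In 20-month donors 9 fell and 5 rose. The part of stromal markers in the member differences was not tested. In bulk RNA, fewer cells of a type and less RNA per cell cannot be told apart. Osteoclast markers moved the other way, with 10 of 10 higher in 6-month and 10 of 10 higher in 20-month multinucleated cultures.

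Genes of the wider pathway also differed between stages, where 50.8% of all genes changed in 6-month and 52.3% in 20-month donors. Of 25 measured genes for other osteoclast-derived factors, 14 fell and 5 rose in 6-month multinucleated cultures, with a median log2 fold change of -0.59 against -0.01 for all genes. The growth factors Tgfb3 (-3.22 ± 0.07 log2) and Tgfb2 (-2.19 ± 0.11), Igf2 (-2.498 ± 0.53) and the ROBO ligand Slit2 (-1.999 ± 0.14) differed most, all lower. Igf2 had few counts per library in these multinucleated cultures. In 20-month donors 11 rose and 8 fell, led by the sphingosine kinase Sphk1 (1.85 ± 0.17) and the sphingosine-1-phosphate exporter Spns2 (1.64 ± 0.08), both higher. Of 30 measured receptors of the members, 16 fell and 6 rose in 6-month multinucleated cultures, led by the ephrin receptors Ephb2 (-2.24 ± 0.36) and Ephb4 (-2.06 ± 0.18), the semaphorin receptor Plxnb1 (-1.91 ± 0.24) and the SLIT receptor Robo1 (-1.79 ± 0.16). Each of these 4 receptors had a mean under 10 CPM in both groups. In the list of 17 measured genes for release and activation of TGF-β and other latent factors, 5 rose and 7 fell in 6-month donors. The largest changes were in Lrrc32 (-2.80 ± 0.11) and Thbs1 (-2.71 ± 0.09), which present and activate latent TGF-β, and in the protease Mmp9 (2.75 ± 0.07) and the integrin subunit Itgb3 (2.03 ± 0.07), both also osteoclast markers. Of 12 TGF-β and BMP response genes, 10 fell and 1 rose in 6-month and 9 fell and 1 rose in 20-month multinucleated cultures.

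The genotype comparison at 6 months set KO against WT multinucleated cultures, with a KO group from each title set and the same WT libraries. In 6-month KO of set 519, Tgfb1 rose 1.62-fold (log2 fold change 0.70 ± 0.07, adjusted p = 1.25e-10, edgeR's quasi-likelihood test), Efnb2 1.39-fold (0.47 ± 0.12, adjusted p = 0.00135), Sema4d 1.35-fold (0.43 ± 0.05, adjusted p = 4.02e-08) and Pdgfb 1.30-fold (0.38 ± 0.06, adjusted p = 6.38e-06). Slit3 fell 2.60-fold (-1.38 ± 0.34, adjusted p = 0.000932), Csf1 2.19-fold (-1.13 ± 0.09, adjusted p = 1.85e-12) and Lif 1.64-fold (-0.71 ± 0.12, adjusted p = 4.44e-06). In all, 7 of 9 members changed, against 51.6% of all genes. Cthrc1 and Wnt10b did not pass, with 95% intervals of -0.49 to 0.47 and -0.58 to 1.43.

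In untagged 6-month KO, Efnb2 fell 4.69-fold (-2.23 ± 0.14, adjusted p = 1.22e-15) and Lif 4.48-fold (-2.16 ± 0.12, adjusted p = 2.64e-17), with no overlap of libraries. Sema4d fell 1.27-fold (-0.35 ± 0.05, adjusted p = 1.43e-06), Tgfb1 rose 1.23-fold (0.30 ± 0.07, adjusted p = 0.00026) and Pdgfb rose 1.13-fold (0.17 ± 0.06, adjusted p = 0.0184). Slit3 fell 1.95-fold (-0.97 ± 0.26, adjusted p = 0.00202) with overlapping libraries. Its call was lost without replicate 2 of 6-month WT (-0.53, adjusted p = 0.0868), as was that of Pdgfb without replicate 4 of 6-month WT (0.15, adjusted p = 0.0718). These were 6 of 9 members, near the 60.0% of all genes. Csf1, Cthrc1 and Wnt10b did not pass, with 95% intervals of the log2 fold change of -0.06 to 0.23, -0.11 to 0.67 and -0.24 to 1.40.

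The KO sets of 6 months thus gave the same sign for Tgfb1, Pdgfb, Lif and Slit3 and opposite signs for Efnb2 and Sema4d against the same WT libraries. Tested against each other, 6-month KO of set 519 exceeded untagged 6-month KO 6.51-fold for Efnb2 (2.70 ± 0.15, adjusted p = 5.84e-17), 2.74-fold for Lif (1.45 ± 0.14, adjusted p = 6.82e-11) and 1.72-fold for Sema4d (0.78 ± 0.06, adjusted p = 6.43e-14). Tgfb1 (0.40 ± 0.07, adjusted p = 5.63e-06) and Pdgfb (0.21 ± 0.06, adjusted p = 0.00703) were also higher, and Csf1 was 2.32-fold lower (-1.22 ± 0.09, adjusted p = 2.2e-13). The Pdgfb call was lost without the filter on low counts (0.15, adjusted p = 0.0631). These 6 of 9 members compare with 49.1% of all genes. All 10 osteoclast markers were higher in set 519, and the summed stromal markers were 588 to 626 CPM in set 519 and 1121 to 1217 CPM in untagged KO, against 1669 to 2155 CPM in 6-month WT. Macrophage markers summed to 19969.9 to 20071 CPM in set 519 and 26187 to 26797 CPM in untagged KO, against 10976 to 11077 CPM in 6-month WT. Platelet and megakaryocyte markers summed to 49.1 to 53.8 CPM in set 519 and 207 to 271 CPM in untagged KO, against 20.4 to 25.4 CPM in 6-month WT. Endothelial markers summed to 135 to 147 CPM in set 519 and 72.9 to 81.9 CPM in untagged KO, against 68.4 to 75.6 CPM in 6-month WT. The part of these marker levels in the member differences was not tested.

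At 1 month, KO was set against each WT set in turn. Against untagged 1-month WT, 1-month KO of set 519 had higher Csf1 (1.66-fold, 0.73 ± 0.08, adjusted p = 2.74e-09), Efnb2 (2.25-fold, 1.17 ± 0.18, adjusted p = 1.48e-06), Sema4d (1.33-fold, 0.41 ± 0.06, adjusted p = 8.7e-08) and Tgfb1 (1.30-fold, 0.38 ± 0.07, adjusted p = 1.31e-05), 4 of 9 members against 57.0% of all genes. In untagged 1-month KO, Csf1 rose 1.59-fold (0.67 ± 0.08, adjusted p = 9.43e-09), Tgfb1 rose 1.16-fold (0.21 ± 0.07, adjusted p = 0.00954) and Cthrc1 fell 1.89-fold (-0.92 ± 0.27, adjusted p = 0.0061), 3 of 9 against 41.4% of all genes. The Tgfb1 call in untagged KO was lost without KO replicate 4 (0.17, adjusted p = 0.0645), WT replicate 3 (0.18, adjusted p = 0.06) or WT replicate 4 (0.18, adjusted p = 0.0566). Calls were gained in untagged KO by Slit3 without KO replicate 4 (-1.47, adjusted p = 0.0337), Efnb2 without WT replicate 3 (0.53, adjusted p = 0.0254) and Sema4d without WT replicate 1 (-0.15, adjusted p = 0.0201). In set 519, Lif gained a call without WT replicate 3 (0.46, adjusted p = 0.0353) and also without replicate 4 of KO (0.43, adjusted p = 0.0455), and Cthrc1 without WT replicate 4 (-0.91, adjusted p = 0.0314) and without replicate 2 (-1.02, adjusted p = 0.0315) or 4 of KO (-0.95, adjusted p = 0.0352).

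Against set D1, which differs from KO in sex as well, both KO sets were lower for 7 of 9 members and higher for Tgfb1, where 62.3% of all genes changed with set 519 and 73.7% with untagged KO. For 1-month KO of set 519 the log2 fold changes against set D1 were -3.54 ± 0.47 for Slit3, -3.51 ± 0.26 for Cthrc1, -2.85 ± 0.14 for Lif and -1.75 ± 0.15 for Efnb2. For untagged 1-month KO they were -3.65 ± 0.21 for Cthrc1, -3.43 ± 0.12 for Lif, -3.02 ± 0.33 for Slit3 and -2.54 ± 0.13 for Efnb2. Csf1 changed sign with the WT set: -0.71 ± 0.08, adjusted p = 1.75e-09 in set 519 and -0.77 ± 0.07, adjusted p = 2.29e-11 in untagged KO. In 1-month KO of set 519 so did Efnb2 and Sema4d (-0.36 ± 0.06, adjusted p = 8.5e-07 for Sema4d), both higher than in untagged WT and lower than in set D1. Tgfb1 did not change sign, at 0.50 ± 0.07, adjusted p = 1.06e-07 in set 519 and 0.33 ± 0.07, adjusted p = 4.12e-05 in untagged KO. Tgfb1 was thus higher in KO in each of the 6 genotype comparisons, which share KO and WT libraries and are not independent. Osteoclast markers differed between these groups: 7 of 10 were higher and 1 lower in 1-month KO of set 519 than in untagged 1-month WT. In untagged 1-month KO 10 of 10 were lower. Macrophage markers summed to 27449 to 32359 CPM in set 519 and 44469 to 47509.9 CPM in untagged KO, against 18962 to 19966 CPM in set D1 and 27282 to 29417 CPM in untagged WT. Platelet and megakaryocyte markers summed to 32.2 to 38.5 CPM in set 519 and 221 to 275 CPM in untagged KO, against 132 to 140.5 CPM in set D1 and 161 to 282 CPM in untagged WT. Endothelial markers summed to 125 to 131 CPM in set 519 and 39.2 to 47.7 CPM in untagged KO, against 91.1 to 100.7 CPM in set D1 and 49.98 to 58.6 CPM in untagged WT. Neutrophil markers summed to 2.57 to 5.54 CPM in set 519 and 18.1 to 18.7 CPM in untagged KO, against 15.2 to 15.9 CPM in set D1 and 6.10 to 7.49 CPM in untagged WT. Summed stromal markers were 733 to 864 CPM in 1-month KO of set 519 and 906 to 1009 CPM in untagged 1-month KO, against 4245 to 4639.7 CPM in set D1 and 709.9 to 789.6 CPM in untagged 1-month WT. The part of these markers was not tested.

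**Figure D4:**
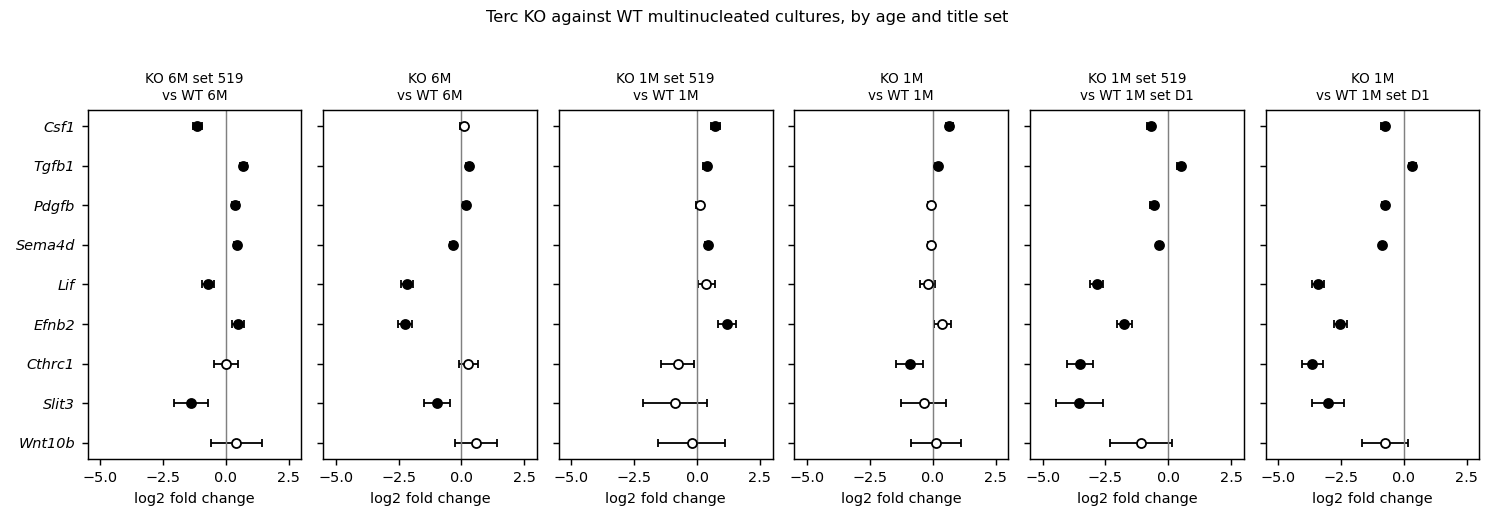
Log2 fold changes of the 9 tested members in KO over WT multinucleated cultures in 6 comparisons, with 95% intervals as bars and filled points where the adjusted p was under 0.05. Tgfb1 lies right of 0 in all 6 panels, whereas Csf1, Efnb2 and Sema4d lie on either side depending on the groups compared.

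Title sets of the same genotype and age were also compared. Set D1 exceeded untagged 1-month WT for Lif (9.36-fold, 3.23 ± 0.11, adjusted p = 7.7e-23), Efnb2 (7.57-fold, 2.92 ± 0.13, adjusted p = 8.67e-20), Cthrc1 (6.64-fold, 2.73 ± 0.19, adjusted p = 4.22e-15), Slit3 (6.34-fold, 2.66 ± 0.31, adjusted p = 1.71e-09), Csf1 (2.71-fold, 1.44 ± 0.08, adjusted p = 3.33e-18), Sema4d (0.77 ± 0.05 log2) and Pdgfb (0.69 ± 0.06 log2). That is 7 of 9 members, against 74.5% of all genes. Tgfb1 did not pass (interval -0.25 to 0.01), but passed as lower in set D1 without replicate 3 of untagged WT (-0.17, adjusted p = 0.0422) or replicate 3 of set D1 (-0.18, adjusted p = 0.0334). In 1-month KO, set 519 exceeded untagged KO for Efnb2 (0.79 ± 0.18, adjusted p = 0.00041), Lif (0.58 ± 0.18, adjusted p = 0.00705), Sema4d (0.50 ± 0.06, adjusted p = 3.46e-09), Pdgfb (0.17 ± 0.07, adjusted p = 0.0303) and Tgfb1 (0.17 ± 0.07, adjusted p = 0.0411), 5 of 9 members where 50.0% of all genes changed. Of 10 osteoclast markers, 9 were higher in set D1 than in untagged WT and 10 were higher in set 519 than in untagged KO. Their part was not tested. The calls of Tgfb1 and Pdgfb in 1-month KO were lost without the filter on low counts (0.12, adjusted p = 0.158, and 0.13, adjusted p = 0.151) and with only the groups compared in the fit (0.22, adjusted p = 0.059, and 0.22, adjusted p = 0.0553). They were also lost without untagged KO replicate 2 (0.12, adjusted p = 0.174, and 0.12, adjusted p = 0.143) and without set 519 replicate 2 (0.09, adjusted p = 0.307, and 0.11, adjusted p = 0.208).

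Pathway genes in 6-month KO are to be read against the 51.6% of all genes that changed in set 519 and the 60.0% in untagged KO. Of 25 other osteoclast-derived factors, 7 rose and 10 fell in set 519, and 7 rose and 13 fell in untagged KO. In untagged KO the complement gene C3 had the largest rise (2.28 ± 0.07 log2), and Igf2 (-3.21 ± 1.05), Sphk1 (-2.25 ± 0.17) and Spns2 (-1.98 ± 0.09) the largest falls, although Igf2 had at most 1 count per library in untagged KO, against 3 to 13 counts in 6-month WT. Of 30 receptors, 7 rose and 10 fell in set 519, and 6 rose and 18 fell in untagged KO, among them the PDGF receptor Pdgfra (-2.96 ± 0.34), also a stromal marker, and the TGF-β receptor Tgfbr1 (-1.80 ± 0.07). Of 17 release and activation genes, 9 rose and 6 fell in set 519, and 5 rose and 7 fell in untagged KO, where Nrros, which anchors latent TGF-β on macrophages, rose (1.499 ± 0.06). Of 12 TGF-β and BMP response genes, 7 rose and 2 fell in set 519, and 9 rose and 3 fell in untagged KO, with Smad6 (2.05 ± 0.12), Id1 (1.96 ± 0.11), Id2 (1.83 ± 0.08) and Tgfbi (1.52 ± 0.06) highest in fold. The median log2 fold change of these 12 was 0.55 in set 519 and 0.59 in untagged KO, against -0.01 and -0.02 for all genes. At 6 months the 12 summed to 1160 to 1191 CPM in set 519 and 1607 to 1646 CPM in untagged KO, against 906 to 992 CPM in WT. At 1 month KO was not higher: the sum was 877 to 963 CPM in set 519 and 1278 to 1349 CPM in untagged KO. In 1-month WT it was 1315 to 1373 CPM in set D1 and 1469 to 1561 CPM in untagged cultures.

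Donor age was compared within each genotype. In WT, 6-month against untagged 1-month cultures, Slit3 rose 5.01-fold (2.33 ± 0.31, adjusted p = 8.73e-08), Lif 4.74-fold (2.24 ± 0.12, adjusted p = 1.31e-17), Efnb2 4.51-fold (2.17 ± 0.14, adjusted p = 2.34e-15), Cthrc1 1.52-fold (0.60 ± 0.22, adjusted p = 0.017) and Sema4d 1.40-fold (0.49 ± 0.05, adjusted p = 1.76e-09). Csf1 (0.32 ± 0.08, adjusted p = 0.000489) and Pdgfb (0.19 ± 0.06, adjusted p = 0.0111) rose by less, and Tgfb1 fell (-0.16 ± 0.07, adjusted p = 0.0338), so 8 of 9 members changed, against 63.6% of all genes. Set against set D1 instead, where 57.8% of all genes changed, 6-month WT was lower for the 7 members that had risen, at -0.98 (log2) for Lif, -0.75 for Efnb2, -2.13 for Cthrc1, -0.28 for Sema4d, -1.12 for Csf1, -0.51 for Pdgfb and -0.34 for Slit3, the last not past the threshold (adjusted p = 0.231). Markers moved with age against untagged 1-month WT: 10 of 10 osteoclast and 16 of 19 stromal markers were higher in 6-month WT. Macrophage markers summed to 10976 to 11077 CPM in 6-month WT, against 27282 to 29417 CPM in untagged 1-month WT. Stromal markers summed to 1669 to 2155 CPM in 6-month and 709.9 to 789.6 CPM in 1-month WT, and platelet and megakaryocyte markers to 20.4 to 25.4 CPM in 6-month and 161 to 282 CPM in 1-month WT. Their part in the member differences was not tested. The Tgfb1 call was lost with DESeq2 (-0.15, adjusted p = 0.0547), with its size factors in edgeR (-0.15, adjusted p = 0.0529) and with only the groups compared (-0.14, adjusted p = 0.0968). Against untagged WT, calls were lost for Tgfb1 without 1-month replicate 1 (-0.09, adjusted p = 0.247), 6-month replicate 2 (-0.16, adjusted p = 0.0758) or 6-month replicate 4 (-0.13, adjusted p = 0.15). They were lost for Cthrc1 without 1-month replicate 4 (0.48, adjusted p = 0.0919) or 6-month replicate 3 (0.56, adjusted p = 0.0521), and for Pdgfb without 1-month replicate 4 (0.13, adjusted p = 0.0928) or 6-month replicate 2 (0.16, adjusted p = 0.0584).

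In 20-month against 6-month WT multinucleated cultures, 3 of 9 members changed, against 14.3% of all genes. Cthrc1 rose 1.76-fold (0.81 ± 0.19, adjusted p = 0.0033), Csf1 1.38-fold (0.46 ± 0.08, adjusted p = 3.59e-05) and Wnt10b 2.24-fold (1.16 ± 0.40, adjusted p = 0.0476). Wnt10b had 15, 12 and 17 counts in 20-month and 5, 7 and 7 counts in 6-month WT, and its call was lost when any of the 6 libraries was left out (log2 fold changes 1.08 to 1.26). It was also lost with DESeq2 (1.18, adjusted p = 0.0733), without the filter on low counts (1.16, adjusted p = 0.144) and with the replicate block (1.08, adjusted p = 0.0984). Intervals of the log2 fold change were -0.04 to 0.17 for Sema4d, -0.11 to 0.14 for Pdgfb and -0.16 to 0.10 for Tgfb1. They were -0.32 to 0.07 for Lif, -0.05 to 0.40 for Efnb2 and -1.03 to -0.02 for Slit3, and Slit3 gained a call without replicate 4 of 6-month WT (-0.83, adjusted p = 0.0276). Summed stromal markers were 3199 to 3667 CPM in 20-month and 1669 to 2155 CPM in 6-month WT, with the collagens Col1a1 (1.34 ± 0.09 log2) and Col1a2 (1.13 ± 0.07) higher and the proteoglycan gene Dcn (-1.86 ± 0.11) lower. Their part in the rise of Csf1 and Cthrc1 was not tested. Of 25 other osteoclast-derived factors, 12 rose and 2 fell, led by the protease Adamts1 (1.35 ± 0.12), Sema3a (0.96 ± 0.24), Bmp2 (0.82 ± 0.20) and Slit2 (0.81 ± 0.15).

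In 20-month against untagged 1-month WT, 9 of 9 tested members changed, against 68.6% of all genes, with 8 higher and Tgfb1 lower. The log2 fold changes were 2.35 ± 0.14 for Efnb2, 2.12 ± 0.12 for Lif, 1.80 ± 0.33 for Slit3, 1.61 ± 0.41 for Wnt10b and 1.42 ± 0.20 for Cthrc1. They were 0.78 ± 0.08 for Csf1, 0.56 ± 0.05 for Sema4d, 0.20 ± 0.06 for Pdgfb and -0.19 ± 0.07 for Tgfb1. Again 10 of 10 osteoclast markers and 17 of 19 stromal markers were higher in 20-month WT. Stromal markers summed to 3199 to 3667 CPM in 20-month WT, against 709.9 to 789.6 CPM in untagged 1-month WT. Macrophage markers summed to 9712 to 10140.3 CPM in 20-month and 27282 to 29417 CPM in 1-month WT, and platelet and megakaryocyte markers to 16.9 to 20.1 CPM in 20-month and 161 to 282 CPM in 1-month WT. Their part was not tested. Calls were lost for Tgfb1 without 1-month replicate 1 (-0.13, adjusted p = 0.104) and for Pdgfb without 1-month replicate 4 (0.15, adjusted p = 0.0579). Against set D1, where 52.8% of all genes changed, 20-month WT was lower for Cthrc1 (-1.31), Lif (-1.11), Slit3 (-0.86), Csf1 (-0.65), Efnb2 (-0.57), Pdgfb (-0.49) and Sema4d (-0.22), all past the threshold, and neither Wnt10b (0.73, adjusted p = 0.109) nor Tgfb1 (-0.08, adjusted p = 0.355) passed. The direction of age for 7 members thus rested on which 1-month WT set was used.

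In KO, 6-month against 1-month cultures within each title set, Cthrc1 rose 2.59-fold in set 519 (1.38 ± 0.35, adjusted p = 0.00229) and 3.49-fold in untagged KO (1.80 ± 0.24, adjusted p = 2.79e-07). Slit3 rose 3.53-fold in set 519 (1.82 ± 0.63, adjusted p = 0.0245) and 3.29-fold in untagged KO (1.72 ± 0.38, adjusted p = 0.00041). Sema4d (0.51 ± 0.06 and 0.22 ± 0.05 log2) and Pdgfb (0.46 ± 0.07 and 0.43 ± 0.06) also rose in set 519 and in untagged KO, and Csf1 fell in both (-1.54 ± 0.10 and -0.26 ± 0.07). In all 7 of 9 members changed in set 519, against 32.5% of all genes, and 6 of 9 in untagged KO, against 37.5%. These comparisons share no library. Osteoclast markers were higher in 6-month KO for 10 of 10 in set 519 and 10 of 10 in untagged KO. Their sum was 26509.8 to 27711 CPM in 6-month against 7033 to 8246 CPM in 1-month KO of set 519. It was 2469.7 to 2766 CPM in 6-month against 673 to 736 CPM in 1-month untagged KO. Macrophage markers summed to 19969.9 to 20071 CPM in 6-month against 27449 to 32359 CPM in 1-month KO of set 519. In untagged KO they summed to 26187 to 26797 CPM in 6-month against 44469 to 47509.9 CPM in 1-month KO. The part of these markers was not tested. The age difference itself differed between the sets for 4 of 9 members, against 14.9% of all genes: Efnb2 (1.91 ± 0.23, adjusted p = 2.31e-07), Csf1 (-1.28 ± 0.12, adjusted p = 1.77e-09), Lif (0.87 ± 0.22, adjusted p = 0.00541) and Sema4d (0.28 ± 0.08, adjusted p = 0.0104), each being set 519 minus untagged KO. The Sema4d call was lost with only the groups compared (0.24, adjusted p = 0.0708). Efnb2 rose with age in set 519 (1.47 ± 0.16) and fell in untagged KO (-0.44 ± 0.17).

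Some age calls in KO rested on single libraries. In set 519 the Slit3 call was lost without 1-month replicate 2 (1.78, adjusted p = 0.0543), 3 (2.25, adjusted p = 0.0647) or 4 (1.66, adjusted p = 0.0602) and without 6-month replicate 3 (1.75, adjusted p = 0.0505) or 4 (1.72, adjusted p = 0.0758). There the Cthrc1 call was lost without 1-month replicate 3 (0.87, adjusted p = 0.108) or 6-month replicate 2 (0.99, adjusted p = 0.0567), and Tgfb1 gained a call without 1-month replicate 2 (0.23, adjusted p = 0.0136) or 6-month replicate 4 (0.22, adjusted p = 0.0287). In untagged KO the Efnb2 call was lost with the replicate block (-0.44, adjusted p = 0.051), with only the groups compared (-0.45, adjusted p = 0.0736) and without 1-month replicate 1 (-0.44, adjusted p = 0.0851), 1-month replicate 2 (-0.40, adjusted p = 0.092), 6-month replicate 2 (-0.48, adjusted p = 0.0559) or 6-month replicate 3 (-0.30, adjusted p = 0.213). The Slit3 change in untagged KO was 2.83 without 1-month replicate 4, where the counts of Slit3 in replicates 1, 2 and 4 were 8, 4 and 29. In the difference between sets, Tgfb1 gained a call without untagged 1-month replicate 2 (0.30, adjusted p = 0.0225), set 519 1-month replicate 2 (0.31, adjusted p = 0.0219) or set 519 6-month replicate 4 (0.29, adjusted p = 0.0475).

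The genotype difference at 6 months differed from that at 1 month for 6 of 9 members in untagged cultures, against 48.6% of all genes. The difference of log2 fold changes, 6-month minus 1-month, was -2.61 ± 0.22, adjusted p = 8.78e-12 for Efnb2, -1.96 ± 0.19, adjusted p = 3.06e-10 for Lif and -0.58 ± 0.11, adjusted p = 3.04e-05 for Csf1. It was 1.20 ± 0.34, adjusted p = 0.00349 for Cthrc1, -0.27 ± 0.08, adjusted p = 0.00485 for Sema4d and 0.24 ± 0.09, adjusted p = 0.025 for Pdgfb. With set 519 as the KO group, an alternative chosen after seeing the data in which 44.6% of all genes passed, the difference was -0.70 for Efnb2 (adjusted p = 0.00888), -1.09 for Lif (adjusted p = 6.31e-05), -1.86 for Csf1 (adjusted p = 3.15e-14) and 0.28 for Pdgfb (adjusted p = 0.0134). There the difference for Sema4d was 0.02 (adjusted p = 0.87), that for Cthrc1 did not pass (0.77, adjusted p = 0.142), and that for Tgfb1 did (0.32, adjusted p = 0.00653). Osteoclast markers differed between these groups too: all 10 were lower in untagged 6-month KO than in 6-month WT, 10 of 10 were lower in untagged 1-month KO than in untagged 1-month WT, and 5 were higher and 2 lower in 6-month KO of set 519. Their part in the member differences was not tested. The Pdgfb difference lost its call with DESeq2's size factors in edgeR (0.21, adjusted p = 0.0528), with only the groups compared (0.23, adjusted p = 0.0566) and without untagged 1-month KO replicate 2 (0.18, adjusted p = 0.0851), 1-month WT replicate 3 (0.21, adjusted p = 0.0668) or 6-month WT replicate 4 (0.22, adjusted p = 0.0597).

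Some members changed by at least 2-fold and past the threshold, and the percentage of all genes that did so is given beside each comparison. In 6-month KO of set 519, Csf1 and Slit3 did so against 6-month WT (10.8% of all genes), Csf1, Efnb2 and Lif against untagged KO (11.3%), and Csf1, Efnb2, Lif, Slit3 and Cthrc1 against 1-month KO of set 519 (6.81%). In untagged 6-month KO, Efnb2 and Lif did so against 6-month WT (16.7%) and Slit3 and Cthrc1 against 1-month KO (6.60%). In 1-month KO of set 519, Efnb2 did so against untagged WT (15.8%), 0 members against untagged KO (12.0%), and Efnb2, Slit3, Lif and Cthrc1 against set D1 (21.0%). The same 4 did so in untagged 1-month KO against set D1 (30.2%), and 0 members against untagged WT (5.69%). Set D1 differed in this way from untagged 1-month WT for Efnb2, Slit3, Lif, Cthrc1 and Csf1 (31.5%). For WT age, Efnb2, Slit3 and Lif did so at 6 months (18.6%) and Efnb2, Slit3, Lif, Cthrc1 and Wnt10b at 20 months (22.9%) against untagged 1 month, Wnt10b at 20 against 6 months (1.49%), and Slit3, Lif and Csf1 between the ages of 2-day cultures (2.57%). For stage, Csf1, Slit3 and Wnt10b did so in 6-month donors (13.3%) and Csf1 in 20-month donors (10.3%). Among differences of differences, the members were Efnb2, Lif and Cthrc1 for genotype by age (15.2%), Slit3 and Csf1 for stage by age (4.06%), and Efnb2 and Csf1 for title set by age (2.63%).

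Across the 30 libraries, likeness of the members to each other and to other genes is given as the Pearson correlation of log2 CPM, a description only, since libraries share groups, stage and title set. Efnb2 and Lif varied most alike (0.90), followed by Sema4d and Pdgfb (0.87) and by Slit3 and Lif (0.79), and Csf1 and Tgfb1 varied most in opposite directions (-0.77). The genes most like each member were the chloride transporter Clcn7 (0.99), 5031439G07Rik (0.98) and Wdr91 (0.98) for Sema4d, and Fscn1 (0.97), Acta2 (0.97) and Hs6st2 (0.97) for Csf1. They were F2r (0.95), Nckap1 (0.94) and Flnc (0.93) for Efnb2, Bcr (0.96), Esyt2 (0.96) and Egfr (0.96) for Lif, and Atp13a2 (0.97), Fbxw5 (0.97) and Sphk2 (0.97) for Tgfb1. For Pdgfb they were Slc39a1 (0.93), Plcb2 (0.93) and Arrdc2 (0.92), for Slit3 Fmod (0.92) and Pmepa1 (0.92), for Cthrc1 Tmem39a (0.91), Gys1 (0.89) and Mmp14 (0.88), and for Wnt10b Paip2b (0.85), Tmem47 (0.85) and Tram2 (0.85). These were among the closest 3 of 11072 other genes (11073 for Wnt10b) with a mean of at least 5 CPM in some group. Acta2, the second closest to Csf1, is among the stromal markers, and Clcn7, the closest to Sema4d, acts in acid secretion by osteoclasts.

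**Figure D5:**
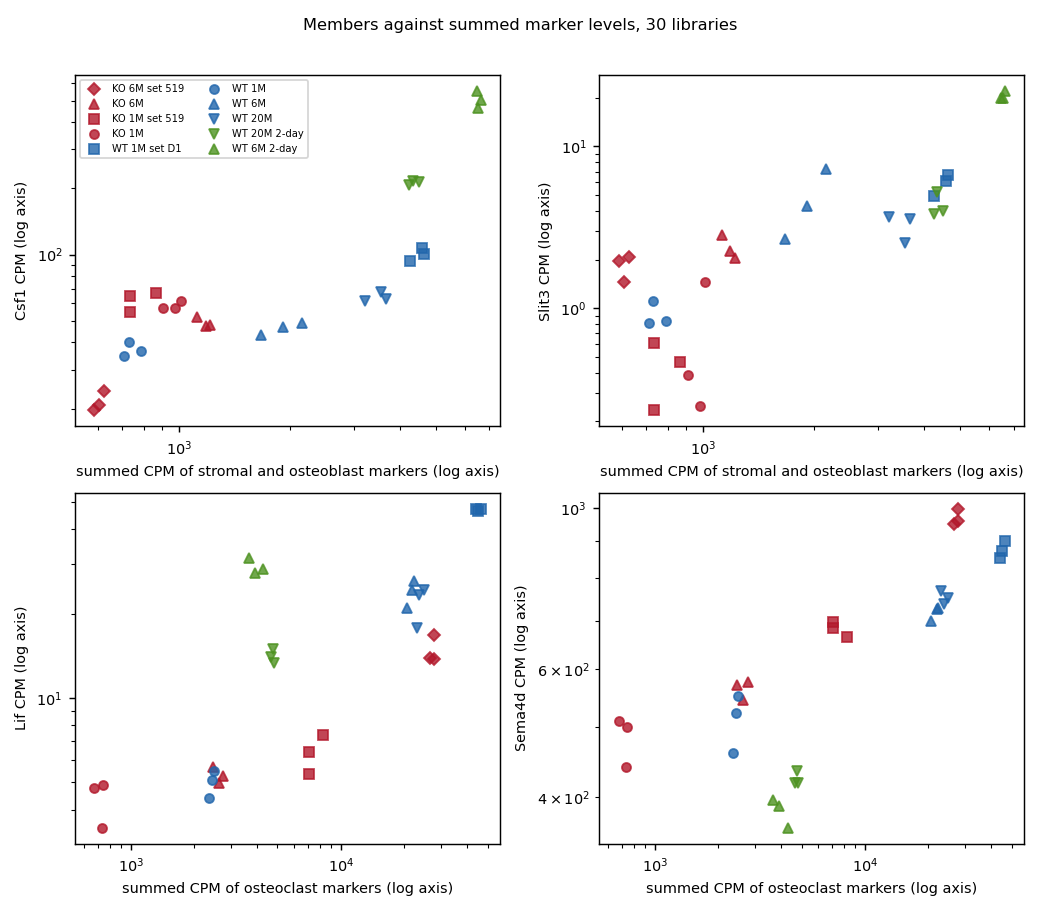
CPM of Csf1 and Slit3 against the summed CPM of 20 stromal and osteoblast markers (upper panels), and of Lif and Sema4d against the summed CPM of 10 osteoclast markers (lower panels), 1 point for each of 30 libraries, all axes log. The 6-month 2-day cultures are highest on both axes of the upper panels, and in the lower panels the 2-day cultures lie above the multinucleated libraries of like marker sum for Lif and below them for Sema4d.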

How the data were processed

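Per the file headers, the authors counted reads per gene with featureCounts 1.6.0 from STAR-aligned reads against the Ensembl 88 annotation of GRCm38, and no strand option is recorded. The submitters' processing notes also name HTSeq and mm10. The deposited values are whole-number counts, 1 table for each of 30 poly(A)-selected libraries, with library totals of 4269798 to 25147975. Identifiers were matched to symbols for 99.39% of genes. No exon of a member overlaps another gene's.

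Counts were scaled by TMM and fitted with edgeR 4.0.16 (quasi-likelihood test, R 4.3.3), 1 coefficient for each of 10 groups, after filterByExpr had kept 15310 of 50686 genes. P-values were adjusted by Benjamini-Hochberg over all tested genes in each of 20 comparisons, with a threshold of 0.05. Errors are standard errors. Intervals are 95% by the normal distribution, so they are somewhat narrower than the test itself would give. The test was tried on simulated data. RPKM used the exon lengths in the files. DESeq2 1.42.0, its size factors, no filter, a replicate block, only the groups compared, a 2-fold rule and leaving out each replicate were alternatives. A limit from 0 counts is 3 counts over the total, for counting error only. The same replicate numbers recur across groups, but 99 same-number pairs of libraries had correlations of deviations from -0.15 to 0.26, so the numbers were not taken as pairs. Within groups, counts of replicates differed by more than sampling noise (chi-square per degree of freedom 1.28 to 22.3). The members and gene lists were chosen with earlier results of these data known. Named genes beside the members were those past the threshold with the largest absolute log2 fold change, at most 4 per list and comparison, and the 3 genes most like each member; some of these genes are not reported here.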

Additional observations from a re-analysis of the deposited data

Results flagged for a closer look

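The results in this section were picked out because a difference between groups was itself different in another age or title set, by an interaction term in edgeR's quasi-likelihood test, 9 members being tested in each. For KO minus WT, the 6-month difference minus the 1-month difference in untagged cultures was -2.61 (log2) for Efnb2, -1.96 for Lif, -0.58 for Csf1, -0.27 for Sema4d, 0.24 for Pdgfb and 1.20 for Cthrc1. With set 519 as the KO group, chosen after seeing the data, it was -0.70 for Efnb2, -1.09 for Lif, -1.86 for Csf1, 0.02 for Sema4d, 0.28 for Pdgfb and 0.77 for Cthrc1, those of Sema4d and Cthrc1 not passing. For multinucleated minus 2-day WT cultures, the 20-month difference minus the 6-month difference was 1.71 for Csf1, 1.70 for Slit3 and 0.93 for Lif. For 6-month minus 1-month KO, the difference in set 519 minus that in untagged KO was 1.91 for Efnb2, 0.87 for Lif, 0.28 for Sema4d and -1.28 for Csf1. Efnb2, Lif and Sema4d have opposite signs in the untagged KO minus WT result and in the last of these, and Csf1 has the same sign. The age difference of untagged KO enters these results with opposite weights, so opposite signs are in part built in.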

How the results depend on the processing

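With DESeq2, with its size factors in edgeR, and with the replicate block, counts of members called stayed within 1.5 times in all 20 comparisons. A required change of at least 2-fold left 0 of 5 members for KO 1M set 519 against KO 1M, 1 of 4 for KO 1M set 519 against WT 1M, 0 of 3 for KO 1M against WT 1M, 4 of 8 for KO 1M set 519 and 4 of 8 for KO 1M against set D1, 3 of 6 for KO 6M set 519 against KO 6M, 2 of 7 for KO 6M set 519 and 2 of 6 for KO 6M against WT 6M, and 2 of 6 for KO 6M against KO 1M. In WT it left 3 of 8 for 6M against 1M, 5 of 9 for 20M against 1M, 1 of 3 for 20M against 6M, and 3 of 7 (6M) and 1 of 5 (20M) for stage, and for the differences of differences 3 of 6 (genotype by age) and 2 of 4 (title set by age). For KO 1M set 519 against KO 1M, 3 members were called without the count filter, 3 with only the groups compared, and 3 to 5 when 1 library was left out. Over all genes, 7344, 5619 and 6187 to 7699 were called in these settings, against 7658 in the main fit. With only the groups compared, 5 members passed for stage by age, where 3 had, and 2868 of all genes did, where 1893 had.

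The replicate block called 4 of 5 members for KO 1M set 519 against KO 1M (Tgfb1 lost, 0.16, adjusted p = 0.0632), 5 of 6 for KO 6M against KO 1M (Efnb2 lost, -0.44, adjusted p = 0.051) and 2 of 3 for WT 20M against WT 6M (Wnt10b lost, 1.08, adjusted p = 0.0984), and changed no other member's call. DESeq2 gave calls to Lif (0.44, adjusted p = 0.0213) and Pdgfb (0.16, adjusted p = 0.0286) in KO 1M set 519 against WT 1M, to Sema4d in the 2-day cultures of both ages (0.15, adjusted p = 0.0407) and to Cthrc1 for stage by age (0.80, adjusted p = 0.0431). With only the groups compared, Tgfb1 lost its call in KO 1M against WT 1M (0.20, adjusted p = 0.103).

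Set D1 as the 1-month WT group and set 519 as the KO group were alternatives chosen after seeing the data. With set D1, 6-month WT changed sign for Csf1 (-1.12), Efnb2 (-0.75), Lif (-0.98), Sema4d (-0.28), Cthrc1 (-2.13) and Pdgfb (-0.51), all past the threshold. Slit3 also changed sign there (-0.34) but did not pass (adjusted p = 0.231). In 20-month WT the sign changed for Csf1 (-0.65), Efnb2 (-0.57), Lif (-1.11), Slit3 (-0.86), Sema4d (-0.22), Cthrc1 (-1.31) and Pdgfb (-0.49). With set 519, the genotype-by-age difference of Sema4d was 0.0183 and did not pass (adjusted p = 0.87). Those of Efnb2 (-0.70), Lif (-1.09) and Csf1 (-1.86) moved by over 1.5 times but passed. The cause was not tested, and set D1 also differs in sex.

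Over all genes, the 2-fold rule lowered every count of called genes by over 1.5 times, for example to 871 of 6340 for KO 1M against WT 1M, 2551 of 9179 for KO 6M against WT 6M, 2035 of 7783 for WT 6M against its 2-day cultures and 228 of 2188 for WT 20M against WT 6M. Only the groups compared gave 3332 genes, against 2188, for WT 20M against WT 6M and 2868, against 1893, for stage by age. Leaving out 1 library gave as few as 1343 genes for WT 20M against WT 6M and 1739, against 2882, for the 2-day cultures of both ages. At the depths sequenced, Bmp6 was too low to test, and the counts of Wnt10b and Slit3 were low.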
